A study of Mus musculus with 46 samples.

Results

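The cap-binding complex eIF4F, its helicase cofactors and the 4E-binding proteins were followed by ribosome profiling and RNA-seq in murine pancreatic cancer cells in which mTOR, the tRNA thiolase subunit Ctu1, or both were impaired. The set holds 10 genes (Eif4e, Eif4g1, Eif4g2, Eif4g3, Eif4a1, Eif4a2, Eif4b, Eif4h, Eif4ebp1 and Eif4ebp2), which were chosen by gene symbol, and each of the 10 stood on a single entry of every deposited table, among 9857 such symbols in all. The cells were EPP2, a murine pancreatic cancer line, with doxycycline-inducible Cas9. The study screened in a clone grown from a single cell, and its methods describe such clones for the inducible Cas9 lines. Whether these libraries came from such a clone is not given in the sources used here. The labels give 1 doxycycline protocol (300 ng/ml over 4 days) for all libraries, while the study's methods list as controls either sgRNAs against non-coding regions or cells left without doxycycline, and which of these the control libraries were is not given in the sources used here. Control cells were cultured with DMSO (n = 6) or with 300 nM torin 1, an ATP-competitive inhibitor of the mTOR kinase, for 2 h (n = 6). Ctu1 iKO cells, in which Ctu1 was edited by doxycycline-induced Cas9, were cultured with DMSO (n = 5) or torin 1 in the same way (n = 6). All groups are of this 1 line.

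Translation of most mRNAs begins when eIF4F assembles on the 5′ cap. Its cap-binding subunit is eIF4E, its scaffolds are the eIF4G proteins and its RNA helicases are the eIF4A proteins, and eIF4B and eIF4H stimulate the helicase. The 4E-binding proteins compete with eIF4G for eIF4E. When mTOR complex 1 is active it phosphorylates them and releases eIF4E, and when mTOR is inhibited they bind eIF4E and lower the initiation of mRNAs that depend most on eIF4F, above all those with a 5′ terminal oligopyrimidine (TOP) tract, which encode ribosomal proteins and many translation factors. Ctu1 thiolates the wobble uridine of the tRNAs that read the codons AAA, GAA and CAA.

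The 23 footprint libraries held 4602092 to 52907878 counts (median 15387951) and the 23 RNA-seq libraries 129881946 to 325494304 (median 252733758). The single counts of the 10 genes in footprint libraries ran from 56 (Eif4ebp2) to 156926 (Eif4g1), and counting error limits Eif4ebp2 most. Levels are given as CPM, the counts per 1000000 of the TMM-scaled library total. They and all changes below are relative to the other genes of the same library, so a change shared by all genes would not show. The paper reports a global fall of newly synthesized proteins on loss of Ctu1, which these levels cannot measure. The targeted gene was listed in the DMSO tables only, and its levels are per 1000000 counts of the table's total without TMM scaling. Ctu1 footprints were 2.53 ± 0.649 CPM in control (SD, n = 6) and 1.78 ± 0.415 CPM in Ctu1 iKO (SD, n = 5), from 16 to 143 counts, and Ctu1 transcripts 4.63 ± 0.346 and 4.04 ± 0.82 CPM. The ranges overlapped in both assays (1.58 to 3.43 against 1.3 to 2.28 CPM in footprints). In replicates 1 to 3, Ctu1 transcripts read 4.558, 4.355 and 4.947 CPM in Ctu1 iKO and 4.747, 4.527 and 4.556 CPM in control, with no clear difference. The lower Ctu1 iKO mean came from replicates 4 and 5, at 3.268 and 3.089 CPM. Editing changes a coding sequence and need not lower its RNA, so this is a weak check of the labels. All 5 mesenchymal markers and 3 of the 7 epithelial markers (Krt8, Krt18 and Krt19) were counted in every library, whereas no acinar, endothelial or leukocyte marker was listed in every table. Every library was also placed on a scale set by replicates 1 to 3 of control cells in the same assay. Their mean with DMSO was 0 and their mean with torin 1 was 1. The scale used the 500 genes that differed most between them, with the 10 genes left out. These control replicates lie near 0 and 1 by construction. In RNA-seq, replicates 1 to 3 of Ctu1 iKO lay at 0.13 to 0.229 with DMSO and at 1.18 to 1.32 with torin 1. Beyond replicate 3 the order held for some libraries and broke for others. It held for control replicates 4 to 6 with DMSO (-0.189 to -0.0454). Replicate 4 with torin 1 lay near the torin 1 end in control (0.856) and in Ctu1 iKO (1.13). Replicates 4 and 5 labelled Ctu1 iKO with DMSO lay at 1.16 and 1.09, replicates 5 and 6 labelled control with torin 1 at 0.146 and 0.149, and replicates 5 and 6 labelled Ctu1 iKO with torin 1 at 0.434 and 0.492. Transcript levels and translational efficiency are therefore given for replicates 1 to 3 only (n = 3 per group), which also leaves out the later libraries that kept their place. Footprints are given for all replicates. Outside the libraries that set the scale, they lay between 0.716 and 1.195 with torin 1 and between 0.0428 and 0.331 with DMSO.

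The site through which the scaffolds and the 4E-binding proteins compete for eIF4E is shown because it joins the set. A tyrosine, any residue, an arginine, any residue, a phenylalanine, a leucine and then a leucine or methionine were searched for in the principal coding sequence of each gene (GENCODE M21, GRCm38). Exactly 1 match was found in each of 4 genes and none in the other 6. Capitals mark the codon of the tyrosine and the last 2 codons, 5′ to 3′ on the coding strand.
Eif4g1, codons 616 to 622, chr16:20681221-20681241, plus strand: TATgacagagaattcCTGCTG
Eif4g3, codons 637 to 643, chr4:138156650-138156670, plus strand: TATgaccgggagttcCTACTG
Eif4ebp1, codons 53 to 59, chr8:27273337-27273357, plus strand: TATgaccggaaatttCTGATG
Eif4ebp2, codons 54 to 60, chr10:61435069-61435089, minus strand: TATgaccgaaagtttCTGTTG
Each of the 4 matches lay within 1 coding exon. Eif4g2, the scaffold that lacks the eIF4E site, held no match, and its annotated coding sequence opened with gtg at chr7:111081545-111081547, minus strand, where the other 9 opened with atg.

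The annotated transcription starts were read because TOP mRNAs are defined by their first bases. RefSeq (GRCm38.p6) held start windows for 8 of the 10 genes; Eif4g2 and Eif4ebp1 had no entry. Each run below covers 15 bases before and 15 bases from the annotated start, and capitals mark its first 5 transcribed bases. Eif4b and Eif4ebp2 are shown because their footprints fell with torin 1, and the ribosomal protein gene Rps6 for comparison.
Eif4b, chr15:102073758-102073787, plus strand: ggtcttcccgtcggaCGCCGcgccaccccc
Eif4ebp2, chr10:61452655-61452684, minus strand: ggtatcgcagcgggaCGACCgggcgagagc
Rps6, chr4:86857353-86857382, minus strand: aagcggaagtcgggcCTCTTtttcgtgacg
A start was taken as TOP-like where the first transcribed base was C and the next 4 were C or T, on the coding strand only. None of the 8 genes matched, against 2.96% of the 7829 counted genes with an entry and 23.2% of 56 ribosomal protein genes. The share was low even among ribosomal protein genes, the best known TOP mRNAs, and a missing match says only that these letters do not stand at the annotated start.

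In control cells with DMSO, the helicase Eif4a1 had the highest footprint density of the set and the scaffold Eif4g3 the lowest. Per kb of coding sequence, footprints were 1689 ± 277 CPM for Eif4a1 and 13.7 ± 1.64 CPM for Eif4g3 (SD, n = 6). Between them followed Eif4e at 634 ± 50.3 CPM per kb, Eif4g1 at 580 ± 115, Eif4h at 445 ± 34.2, Eif4g2 at 219 ± 8.48, Eif4b at 173 ± 9.42, Eif4a2 at 172 ± 34.7, Eif4ebp1 at 147 ± 32.4 and Eif4ebp2 at 63.7 ± 9.93. Neighbours whose ranges overlapped were Eif4e and Eif4g1, Eif4g1 and Eif4h, Eif4b and Eif4a2, and Eif4a2 and Eif4ebp1. Within the same library, Eif4e stood above Eif4g1 in 4 of 6 and Eif4g1 above Eif4h in 5 of 6. Eif4b stood above Eif4a2 in 3 of 6 and Eif4a2 above Eif4ebp1 in 4 of 6, so these orders are not settled. Compared with all genes, 7 of the 10 lay above the 90th percentile of footprint density, led by Eif4a1 (98.9) and Eif4e (96.9), and Eif4g3 lay at the 42.6th.

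**Figure D1:**
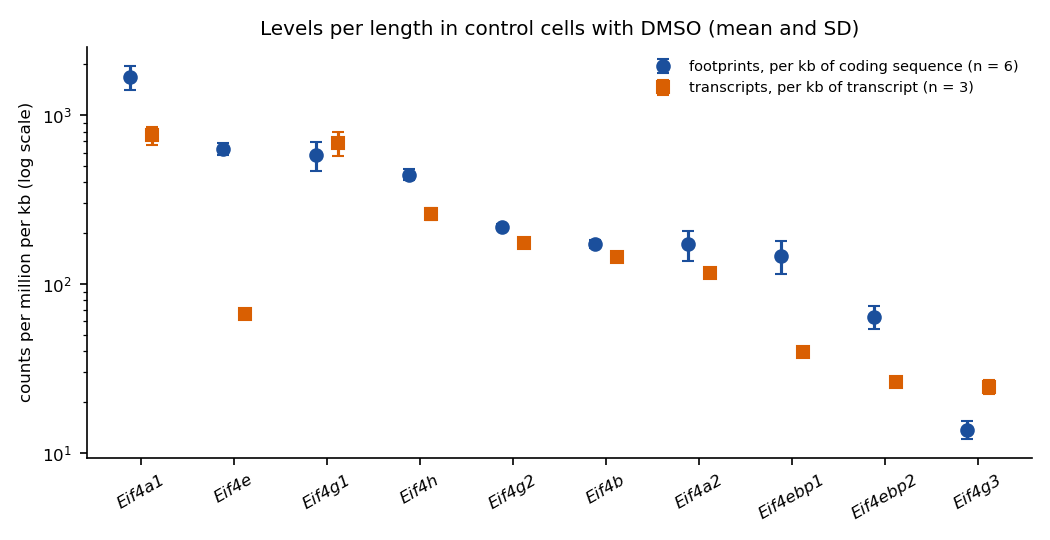
Footprints per kb of coding sequence (circles, n = 6) and transcripts per kb of transcript (squares, n = 3) in control cells with DMSO, in CPM per kb on a log scale, mean and SD. Eif4a1 has the highest mean in both measures, though its transcripts overlap with those of Eif4g1; Eif4e lies at 634 CPM per kb in footprints, where its libraries overlap with those of Eif4g1, and at 66.1 CPM per kb in transcripts.

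The order of transcripts differed from that of footprints mainly for Eif4e. Per kb of the principal annotated transcript, Eif4a1 stood at 761 ± 92.8 CPM, Eif4g1 at 684 ± 108, Eif4h at 261 ± 20.8, Eif4g2 at 176 ± 4.09, Eif4b at 144 ± 1.93, Eif4a2 at 116 ± 7.42, Eif4e at 66.1 ± 4.35, Eif4ebp1 at 39.6 ± 1.78, Eif4ebp2 at 26.2 ± 0.572 and Eif4g3 at 24.7 ± 2.26 (SD, n = 3). Neighbours that overlapped here were Eif4a1 and Eif4g1, and Eif4ebp2 and Eif4g3. Within the same library, Eif4a1 stood above Eif4g1 in 3 of 3 and Eif4ebp2 above Eif4g3 in 2 of 3. The log2 ratio of footprint to transcript density, set against the median gene, was 2.49 ± 0.116 for Eif4e (96.3rd percentile of 9412 genes), 1.36 ± 0.32 for Eif4ebp1 (87.6th) and 0.78 ± 0.112 for Eif4ebp2 (76.4th). The long scaffolds were at the other end, with -1.38 ± 0.083 for Eif4g3 (9.58th percentile) and -1.08 ± 0.0999 for Eif4g1 (14.7th), and the remaining 5 genes lay between -0.41 (Eif4b) and 0.31 (Eif4a1). These densities rest on 1 annotated isoform per gene, 4991 bases long for Eif4e. They also depend on sequences shared with other genes: 99.4% of the runs of 28 bases in the Eif4a1 coding sequence occurred in a transcript of another gene (97.7% in Eif4a-ps4), as did 80.5% for Eif4e (74.5% in Gm7327), 40.5% for Eif4a2, 19.1% for Eif4ebp1 and 17.3% for Eif4b, against at most 1.66% for the other 5, and the levels of Eif4a1, Eif4e and Eif4a2 relative to other genes are uncertain for that reason.

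The first comparison asked how 2 h of mTOR inhibition changed the footprints of the eIF4F genes in control cells. Footprints of Eif4b, the helicase cofactor, and of Eif4ebp2, one of the 4E-binding proteins, fell with torin 1, and those of the cap-binding subunit Eif4e, the scaffolds Eif4g1 and Eif4g3 and the helicase Eif4a1 had log2 changes of less than 0.15 in size. The other helicase, Eif4a2, stood at -0.35, which passed the test with the replicate block alone. With edgeR, 2 of the 10 genes were called lower and 0 higher at an adjusted p under 0.05, where 4.06% of all 9857 genes were called lower and 2.85% higher. The median log2 change was -0.08 over the 10 genes and 0.02 over all genes.

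Eif4b footprints were 296.8 to 343 CPM (median 318.5) with DMSO and 112.1 to 197.9 CPM (median 183.9) with torin 1. Every torin 1 library lay below every DMSO library, as it did, in either direction, for 5.44% of all genes, and replicate 1 with torin 1 was lowest by far. The log2 change was -0.86 ± 0.114 (SE; edgeR quasi-likelihood test, adjusted p = 8.56e-06), and -0.86 with a term for replicates 1 and 2 against the others, a split that no label names (adjusted p = 4.233e-06). Without torin 1 replicate 1 it was -0.76 (edgeR, adjusted p = 2.508e-06). Within replicates 1 to 3 it was -0.9 (adjusted p = 0.0367) and within replicates 4 to 6, a split chosen after the data were seen, -0.8 (adjusted p = 5.103e-04).

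Eif4ebp2 footprints were 19.41 to 28.17 CPM (median 22.4) with DMSO and 10.98 to 17.09 CPM (median 13.2) with torin 1, and again the groups did not overlap. The log2 change was -0.77 ± 0.154 (SE; edgeR, adjusted p = 0.00178). Within replicates 1 to 3 it was -0.9 (adjusted p = 0.0854) and within replicates 4 to 6 -0.6 (adjusted p = 0.0721), so neither part alone passed the threshold.

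The second helicase, Eif4a2, had 142.1 to 270.8 CPM (median 212.9) with DMSO and 92.22 to 204.8 CPM (median 171.1) with torin 1, and the groups overlapped. Its log2 change of -0.35 ± 0.151 (SE) did not pass the test (adjusted p = 0.206). Replicate numbers paired the cultures of this comparison, and with the replicate block Eif4a2 was called at -0.35 ± 0.0947 (SE; edgeR, adjusted p = 0.016), where 13.9% of all genes were called. The paralogue Eif4a1, with a median of 2209 CPM with DMSO and 2165 CPM with torin 1, had a log2 change of -0.02 ± 0.148.

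The remaining genes did not pass the test. Eif4e, the cap-binding subunit, had a median of 415.9 CPM with DMSO and 400.5 CPM with torin 1 (log2 change 0.06 ± 0.0968). The scaffold Eif4g1 changed by -0.15 ± 0.163, and its lowest value, 1224 CPM, was again replicate 1 with torin 1, beside 2309 to 2995 CPM in the other 5. Eif4g3 changed by 0.01 ± 0.14 and Eif4g2, the scaffold that does not bind eIF4E, by 0.12 ± 0.0642. The cofactor Eif4h changed by 0.01 ± 0.0889 and Eif4ebp1 by -0.13 ± 0.165 (log2 changes of footprints, SE).

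**Figure D2:**
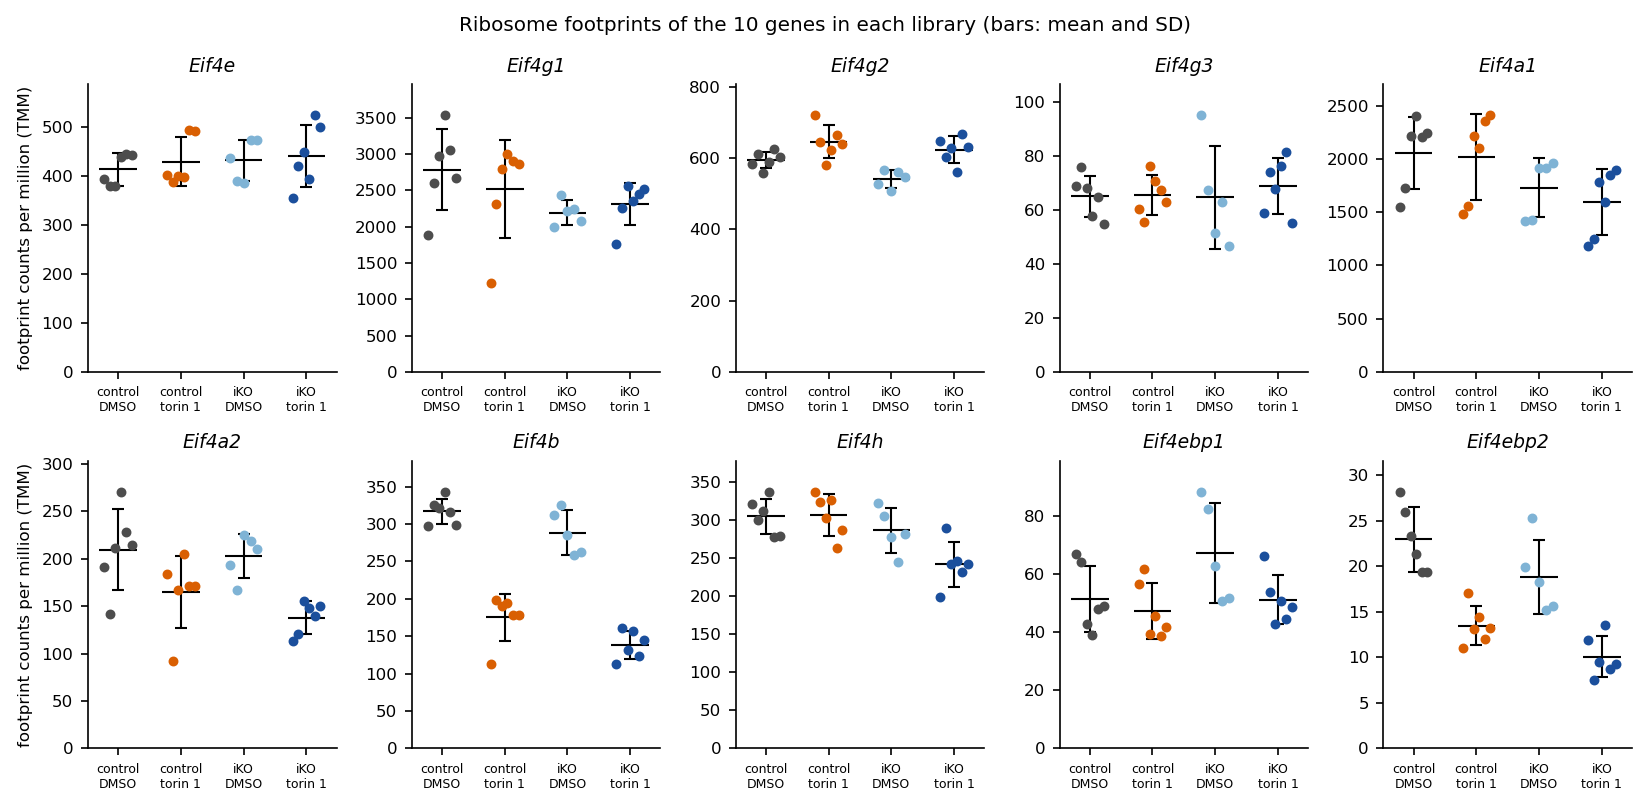
Footprints of each of the 10 genes in CPM (vertical axes from 0), 1 point per library, in the order of replicate numbers within each of 4 groups (iKO, Ctu1 iKO); horizontal bars and whiskers are the mean and SD. For Eif4b and Eif4ebp2 the torin 1 points lie below all DMSO points of the same genotype, while the points of Eif4e, Eif4g1 and Eif4g3 overlap across all groups.

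Transcripts did not follow the footprints. In replicates 1 to 3 Eif4b mRNA rose with torin 1, from 555, 545.7 and 560.4 CPM to 864.1, 801.3 and 731.7 CPM in replicates 1, 2 and 3. The log2 change was 0.53 ± 0.0855 (SE; edgeR, adjusted p = 0.00236), and with all RNA-seq replicates, those off their labels included, 0.34 (adjusted p = 0.124). Eif4ebp2 mRNA read 153.7, 153 and 147.7 CPM with DMSO and 164.8, 157.4 and 137.1 CPM with torin 1, with a log2 change of 0.02 ± 0.0865. Eif4b was the 1 gene of the 10 called higher, and 0 were called lower, where 5.17% of 9616 genes were called higher and 6.67% lower. With the replicate block, which these numbers supported in all transcript comparisons, Eif4h (-0.15, adjusted p = 0.0194) and Eif4g3 (-0.2, adjusted p = 0.0449) were called lower as well by edgeR, where 32.3% of all genes were called.

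Footprints per transcript of Eif4b and Eif4ebp2 therefore fell. Translational efficiency was compared in replicates 1 to 3 by a term for the change of footprints beyond that of transcripts. It changed by -1.44 ± 0.22 for Eif4b (SE, log2; edgeR, adjusted p = 3.656e-04) and by -0.93 ± 0.217 for Eif4ebp2 (adjusted p = 0.0352). In single cultures the log2 ratio of footprint to transcript CPM of Eif4b went from -0.9, -0.75 and -0.81 with DMSO to -2.95, -2.02 and -1.95 with torin 1. For Eif4ebp2 it went from -2.45, -2.56 and -2.66 to -3.91, -3.2 and -3.38. These 2 of the 10 genes were called lower and 0 higher, where 1.14% of 9851 genes were called lower and 0.0406% higher. Scaling by library totals in place of TMM moved the median of all genes from 0.03 to 0.16, and Eif4ebp2 was then not called (-0.8, adjusted p = 0.104). The Eif4ebp2 call was also lost with all footprint replicates (-0.79, adjusted p = 0.0703) and on leaving out control replicate 1, 2 or 3 with DMSO, control replicate 1 or 3 with torin 1, or Ctu1 iKO replicate 1 with DMSO (-0.98 to -0.74, edgeR adjusted p up to 0.327). The Eif4b call was lost in none of these.

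**Figure D3:**
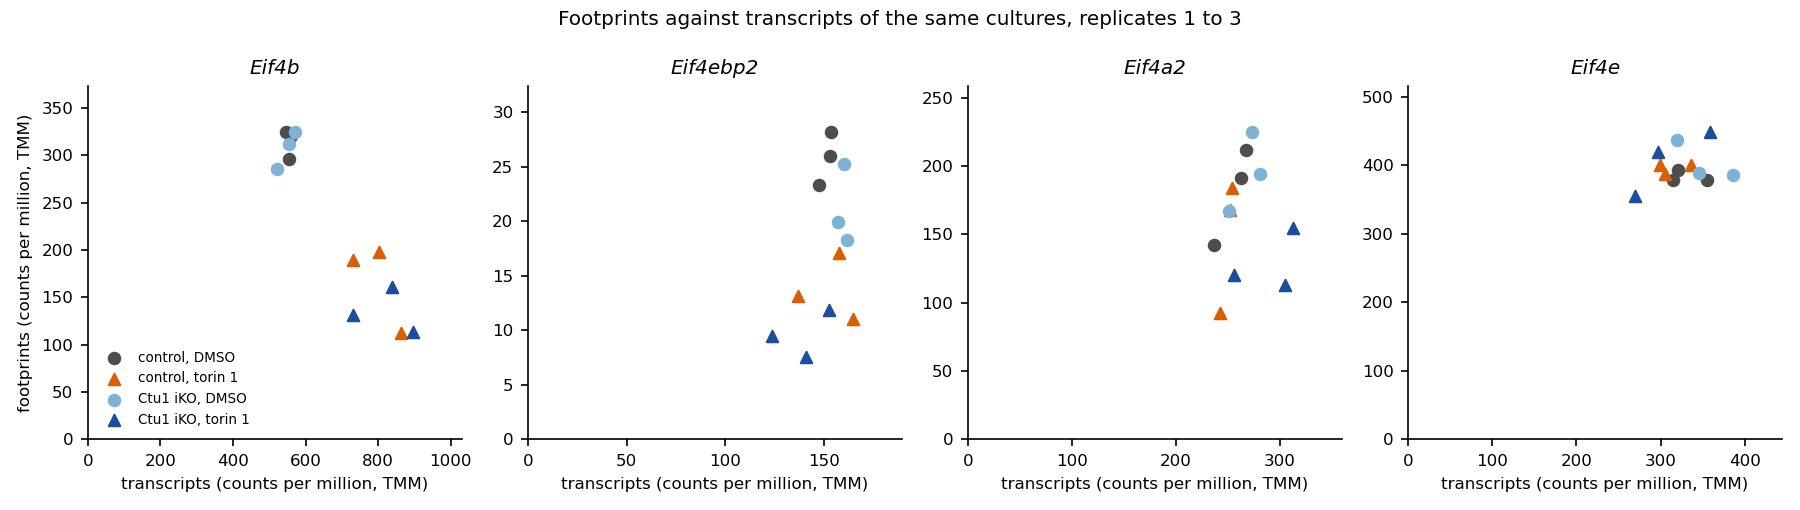
Footprint CPM (vertical) against transcript CPM (horizontal) of the same cultures, replicates 1 to 3, for 4 of the genes; circles are DMSO and triangles torin 1, and both axes start at 0. Eif4b moves down and to the right with torin 1, Eif4ebp2 moves down, Eif4a2 moves down in Ctu1 iKO, and the Eif4e points of all groups mix.

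The second comparison asked the same of Ctu1 iKO cells. Footprints of Eif4b and Eif4ebp2 fell again and those of Eif4a2 fell with them. With edgeR, 3 of the 10 genes were called lower and 0 higher, where 6.36% of 9857 genes were called lower and 5.68% higher, and the median log2 change was -0.18 over the 10 genes against 0.02 over all genes.

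Eif4b footprints stood at 312, 324.7, 285.4, 257.9 and 262.3 CPM in the 5 DMSO libraries and at 113 to 161.1 CPM (median 138) in the 6 torin 1 libraries, with no overlap. The log2 change was -1.06 ± 0.119 (SE; edgeR, adjusted p = 3.378e-07). Eif4ebp2 stood at 19.93, 25.25, 18.29, 15.14 and 15.62 CPM with DMSO and at 7.553 to 13.59 CPM (median 9.37) with torin 1, also with no overlap, and its log2 change was -0.9 ± 0.165 (adjusted p = 3.995e-04). Within replicates 4 to 6 it was -0.55 (edgeR, adjusted p = 0.121), and within replicates 1 to 3 it was -1.16 (adjusted p = 0.0135).

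Eif4a2 stood at 194, 167.4, 225.1, 218.7 and 210.4 CPM with DMSO and at 113 to 155.1 CPM (median 144.1) with torin 1. All torin 1 libraries lay below all DMSO libraries, which held in either direction for 8.16% of all genes. The log2 change was -0.56 ± 0.158 (SE; edgeR, adjusted p = 0.0202), and without DMSO replicate 3 it was -0.52 and no longer called (adjusted p = 0.0543). Library totals in place of TMM gave -0.47 (edgeR, adjusted p = 0.0516). Within replicates 1 to 3 the change was -0.6 (adjusted p = 0.236) and within replicates 4 to 6 -0.55 (adjusted p = 0.0147).

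The other members had the following changes, none of which passed the test in the fit of the 4 groups with no further term. Eif4g2 had 508.9 to 567.7 CPM with DMSO and 561.2 to 668.1 CPM with torin 1, a log2 change of 0.2 ± 0.0675 with an adjusted p of 0.051. DESeq2 called it (0.2, adjusted p = 0.0165), as did edgeR with library totals (0.29, adjusted p = 0.00766). Eif4h changed by -0.24 ± 0.0933 (adjusted p = 0.0926) and Eif4ebp1 by -0.4 ± 0.174 (adjusted p = 0.147, edgeR). Eif4e (0.03 ± 0.102), Eif4g1 (0.08 ± 0.171), Eif4g3 (0.1 ± 0.147) and Eif4a1 (-0.12 ± 0.155) had changes smaller than their standard errors in that fit. With the term for replicates 1 and 2 against the others, edgeR called Eif4g2 higher (0.21 ± 0.0602, adjusted p = 0.018) and Eif4ebp1 lower (-0.34 ± 0.0886, adjusted p = 0.00887), where 18.3% of all genes were called, and Eif4a1 stood at -0.16 ± 0.0578 (adjusted p = 0.0599).

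Eif4b mRNA rose in Ctu1 iKO cells too, from 555.7, 570.5 and 520.9 CPM with DMSO to 896.7, 839.6 and 731.5 CPM with torin 1, a log2 change of 0.58 ± 0.0856 (SE; edgeR, adjusted p = 9.533e-04), against 0.22 with all RNA-seq replicates (adjusted p = 0.813). It was the 1 member called higher, 0 were called lower, and 8.69% of 9616 genes were called higher and 9.16% lower. With the replicate block Eif4e (-0.19, adjusted p = 0.0153) and Eif4ebp2 (-0.21, adjusted p = 0.022) were called lower too by edgeR, where 41% of all genes were called. Translational efficiency of Eif4b changed by -1.76 ± 0.221 (SE, log2; edgeR, adjusted p = 1.488e-05) and that of Eif4ebp2 by -0.96 ± 0.225 (adjusted p = 0.0191), and that of Eif4a2 by -0.7 ± 0.273, which did not pass (adjusted p = 0.265). These 2 genes were called lower and 0 higher, where 2.16% of 9851 genes were called lower and 0.345% higher. Library totals moved the median of all genes from 0.04 to 0.2 and left Eif4ebp2 at -0.8 (edgeR, adjusted p = 0.055), and all footprint replicates (-0.7, adjusted p = 0.106) or leaving out Ctu1 iKO DMSO replicate 1 or 2 or torin 1 replicate 2 also ended its call (edgeR, adjusted p up to 0.128). Translational efficiency of Eif4g2 changed by 0.36 ± 0.119 (edgeR, adjusted p = 0.153), and DESeq2 called it higher (0.35, adjusted p = 0.0258).

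**Figure D4:**
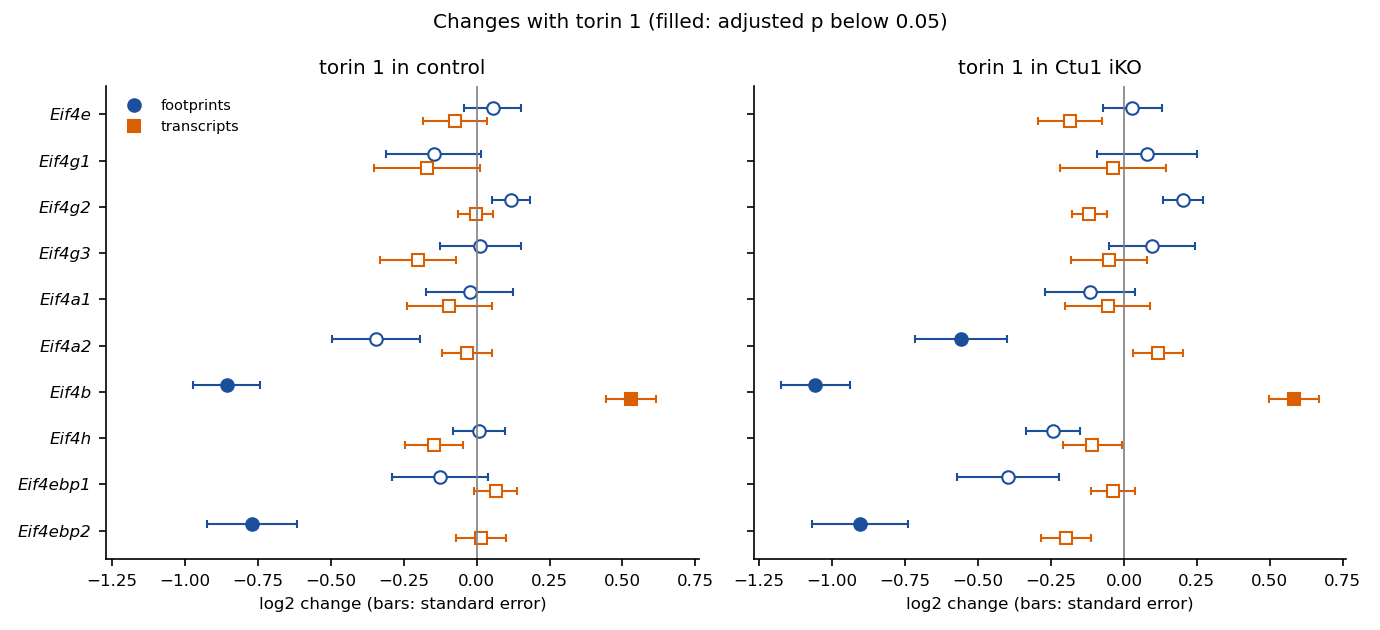
Log2 change with torin 1 (horizontal axis, bars are the SE) in control (left) and Ctu1 iKO (right), for footprints (circles) and transcripts (squares) of each gene; filled symbols have an adjusted p below 0.05. Eif4b lies at -0.86 and -1.06 in footprints and at 0.53 and 0.58 in transcripts, on opposite sides of 0.

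Whether torin 1 acted differently in the 2 genotypes was tested as an interaction in footprints. None of the 10 genes was called by edgeR, where 0.639% of 9857 genes were called, all lower. DESeq2 called 0 of the 10 and 1.11% of all genes. An unadjusted edgeR p under 0.05 was found for 0 of the 10 and for 460 of all 9857 genes. The log2 differences between the torin 1 changes were -0.2 ± 0.164 for Eif4b, -0.21 ± 0.219 for Eif4a2, -0.14 ± 0.225 for Eif4ebp2, -0.25 ± 0.129 for Eif4h and -0.27 ± 0.24 for Eif4ebp1 (SE). The call of Eif4a2 in Ctu1 iKO and not in control is thus not a shown difference. In transcripts 0 of the 10 genes and 0% of 9616 genes were called by edgeR, and 0 of the 10 and 0.0312% of all genes by DESeq2. An unadjusted edgeR p under 0.05 was found for 0 of the 10 and for 140 of all 9616 genes.

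The third comparison asked what loss of Ctu1 alone did. With DMSO, 0 of the 10 genes differed between Ctu1 iKO and control in footprints by edgeR, where 2.76% of 9857 genes were called in either direction. DESeq2 called 0 of the 10 and 5.1% of all genes. An unadjusted edgeR p under 0.05 was found for 1 of the 10 and for 1536 of all 9857 genes. The largest differences were those of Eif4ebp1 (0.38 ± 0.172, adjusted p = 0.276) and Eif4g1 (-0.35 ± 0.171, adjusted p = 0.334) on the log2 scale. Eif4ebp1 footprints read 88.37, 82.55, 62.86, 50.79 and 51.81 CPM in Ctu1 iKO and 39.06 to 66.79 CPM (median 48.4) in control. Replicates 1 and 2 were the highest of their group in all 4 groups for Eif4ebp1 and the lowest in all 4 for Eif4a1. With a term for replicates 1 and 2 against the others, which no label sets apart, Eif4ebp1 was called higher (0.34 ± 0.0877, adjusted p = 0.0192) and Eif4a1 lower (-0.21 ± 0.0579, adjusted p = 0.0255) in edgeR, where 7.18% of all genes were called.

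Transcripts of the 10 genes did not pass the edgeR test in this comparison either, with 0 called by edgeR and 1 by DESeq2. Over all 9616 genes, 6.28% were called by edgeR and 13.3% by DESeq2. An unadjusted edgeR p under 0.05 was found for 2 of the 10 and for 2148 of all 9616 genes. The 2 members were Eif4h at -0.29 ± 0.101 (adjusted p = 0.116) and Eif4ebp1 at 0.2 ± 0.0739 (adjusted p = 0.136), while Eif4g1 stood at -0.24 ± 0.181 (edgeR, adjusted p = 0.489). With the replicate block Eif4h and Eif4ebp1 were called by edgeR, at -0.29 (adjusted p = 6.781e-04) and 0.2 (adjusted p = 0.0422), where 29.2% of all genes were called. In translational efficiency 0 of the 10 were called (edgeR; 0 at an unadjusted p under 0.05, 0 by DESeq2), as were 0.0102% of 9851 genes, and the member values ran from -0.37 (Eif4ebp2) to 0.24 (Eif4h).

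**Figure D5:**
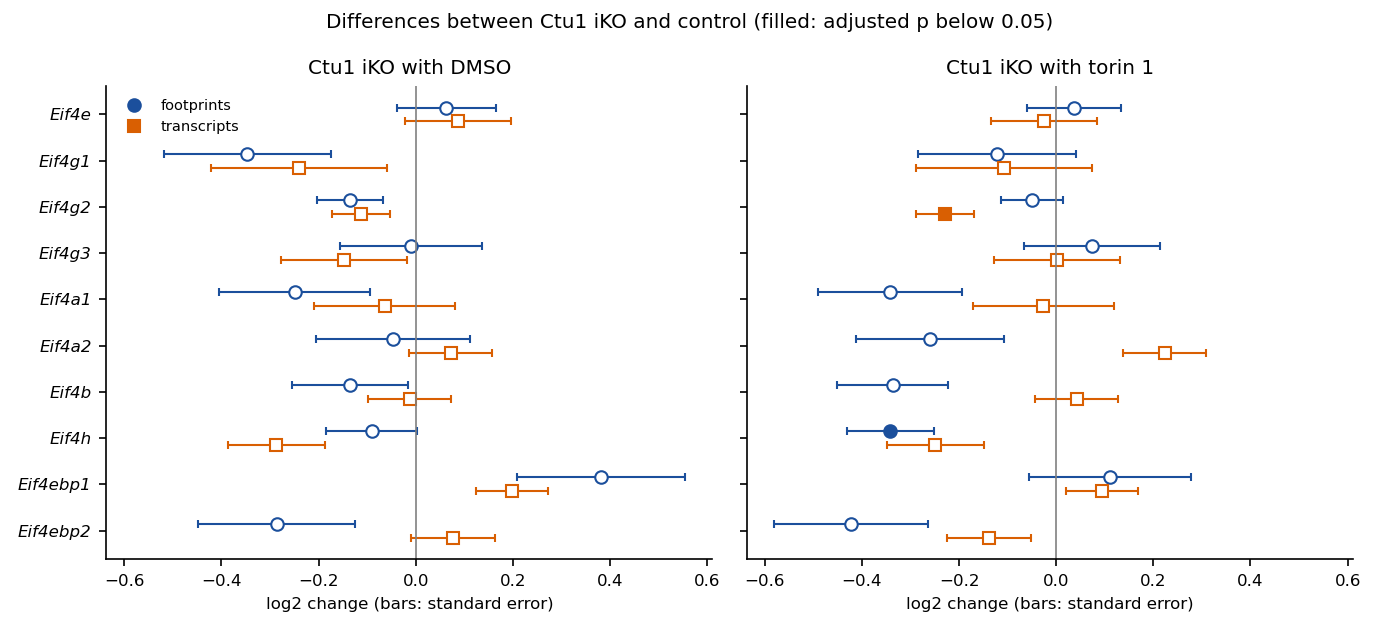
Log2 difference between Ctu1 iKO and control (horizontal axis, bars are the SE) with DMSO (left) and with torin 1 (right), for footprints (circles) and transcripts (squares); filled symbols have an adjusted p below 0.05. Only Eif4h footprints (-0.34) and Eif4g2 transcripts (-0.23), both with torin 1, are filled.

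Under torin 1, footprints of the cofactor Eif4h were lower in Ctu1 iKO than in control. They read 198.4 to 289.7 CPM (median 242) in Ctu1 iKO and 262.9 to 335.9 CPM (median 313.4) in control, ranges that overlapped through Ctu1 iKO replicate 2. The log2 difference was -0.34 ± 0.0892 (SE; edgeR, adjusted p = 0.017), the 1 call among the 10 genes, where 4.6% of 9857 genes were called lower and 3.95% higher. It was not called in a fit of these 2 groups alone (-0.34, adjusted p = 0.0677), within replicates 1 to 3 (-0.41, adjusted p = 0.22) or within replicates 4 to 6 (-0.28, edgeR adjusted p = 0.165). Eif4b (-0.34 ± 0.114, adjusted p = 0.066), Eif4a1 (-0.34 ± 0.148, adjusted p = 0.166) and Eif4ebp2 (-0.42 ± 0.159, adjusted p = 0.103) had differences of like or larger size that did not pass in edgeR.

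Replicate numbers paired the cultures here too, and with the replicate block 3 of the 10 genes were called lower by edgeR, namely Eif4h (-0.34, adjusted p = 0.00571), Eif4a1 (-0.34 ± 0.0495, adjusted p = 5.157e-05) and Eif4b (-0.33 ± 0.0971, adjusted p = 0.0219), where 17.4% of all genes were called. Eif4a1 read 1187, 1253, 1784, 1599, 1855 and 1900 CPM in replicates 1 to 6 of Ctu1 iKO and 1485, 1558, 2221, 2109, 2354 and 2412 CPM in the same numbers of control, lower in 6 of 6 pairs. Without control replicate 1, which had the low Eif4b value, Eif4b was called lower at -0.44 in the fit with no block (edgeR, adjusted p = 0.00279).

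Transcripts of Eif4g2 were lower in Ctu1 iKO under torin 1, at 1155, 1164 and 1272 CPM against 1451, 1406 and 1351 CPM in control, without overlap, as was the case in either direction for 26.4% of 9616 genes, and with a log2 difference of -0.23 ± 0.0597 (SE; edgeR, adjusted p = 0.0344). It was the 1 gene of the 10 called lower and 0 were called higher, where 4.71% of 9616 genes were called lower and 5.38% higher. The call was lost on leaving out 1 library in 7 of 12 cases (adjusted p up to 0.112) and in a fit of the 2 groups alone (adjusted p = 0.184). With all RNA-seq replicates, those off their labels included, the difference was -0.12 (edgeR, adjusted p = 0.83). With the replicate block edgeR kept Eif4g2 (adjusted p = 0.00445) and added Eif4h lower (-0.25, adjusted p = 0.0011) and Eif4a2 higher (0.22, adjusted p = 0.00658), where 35.9% of all genes were called. In translational efficiency edgeR called 0 of the 10 and 0.67% of 9851 genes, and DESeq2 0 of the 10 and 1.54% of all genes. An unadjusted edgeR p under 0.05 was found for 0 of the 10 and for 634 of all genes.

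Ratios within a library do not depend on its scaling, and 4 were compared over the 4 contrasts in footprints, 16 exact tests in all. With torin 1 the log2 ratio of Eif4ebp2 to Eif4e, the inhibitor to its target, ran from -5.36 to -4.5 (median -5.06) in control cells and with DMSO from -4.52 to -3.8 (median -4.19). The ranges overlapped narrowly near -4.5, and the difference was -0.82 (two-sided exact permutation test, n = 6 against 6, p = 0.00649, adjusted p = 0.0519). In Ctu1 iKO the same difference was -0.93 (exact permutation test, n = 6 against 5, p = 0.026, adjusted p = 0.139). The ratio of Eif4a1 to Eif4a2 rose in Ctu1 iKO from 2.87 to 3.22 with DMSO to 3.38 to 3.73 with torin 1 without overlap, by 0.44 (exact permutation test, p = 0.00433, the smallest that 6 against 5 can give, adjusted p = 0.0519). None of the 16 passed at an adjusted p under 0.05, and 3 had an unadjusted exact permutation p under 0.05. For Eif4ebp1 to Eif4e and Eif4g1 to Eif4g3 the differences ran from -0.39 to 0.31, with adjusted p of 0.364 or more. With DMSO in control, footprints of Eif4ebp1 and Eif4ebp2 were 0.123 and 0.0552 times those of Eif4e, and their transcripts 0.24 and 0.459 times those of Eif4e. These are ratios of CPM not divided by length, and the genes differ in length. Per kb of transcript the order of the 2 binding proteins reversed, with Eif4ebp1 at 39.6, Eif4ebp2 at 26.2 and Eif4e at 66.1 CPM.

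The codons read by the tRNAs that Ctu1 modifies were counted in the principal coding sequence of each gene, since the groups differ in Ctu1. AAA, GAA and CAA together made up 11.3% of the codons of Eif4g2 (90th percentile of 9606 genes with a coding sequence), 8.76% of Eif4e, 8.6% of Eif4a2, 8.36% of Eif4g3, 7.75% of Eif4g1, 7.46% of Eif4h, 6.06% of Eif4b, 5.98% of Eif4ebp1, 5.17% of Eif4a1 and 2.5% of Eif4ebp2 (7.71st percentile), with a median gene at 6.13%. Of the lysine codons, AAA took 63.6% in Eif4h (93.9th percentile), the lowest being 15% in Eif4a1 (8.17th). The paralogues Eif4a1 and Eif4a2 differ in it, AAA being 36.4% of lysine codons in Eif4a2.

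Over all 23 footprint libraries, each gene was set against the 8855 others whose counts averaged 100 or more by Pearson's r of log2 CPM, given as a description since the libraries share their groups. Most like Eif4b were Pabpc4 (r = 0.969), a cytoplasmic poly(A)-binding protein, Eef2 (0.963), the translocation factor of elongation, and Srm (0.959), spermidine synthase. Most like Eif4ebp2 were Ybx1 (0.927), an mRNA-binding cold-shock protein, Rpsa (0.922), a ribosomal protein, and Gpi1 (0.918), a glycolytic enzyme. Eif4g1 went with Ssrp1 (0.943), Mthfd1 (0.936) and Snrnp200 (0.923), and Eif4a1 with Tnpo1 (0.94), Psma4 (0.935) and Gm45213 (0.933). Eif4ebp1 went with Serpinh1 (0.904), Pck2 (0.902) and Tinagl1 (0.888), Eif4h with Llph (0.879), Ube2c (0.864) and Fkbp4 (0.839), and Eif4e with Stag1 (0.876), Cdc42 (0.852) and Dync1i2 (0.841). Eif4a2 went with Atp5c1 (0.855), Ccne2 (0.835) and Nupl1 (0.833), Eif4g2 with Phf3 (0.853), Adgrl2 (0.819) and Rock2 (0.813), and Eif4g3, the scarcest per length, with Pccb (0.643), Pdcd4 (0.634) and Morf4l1 (0.622).

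The regulators and partners of eIF4F were read from a list of 36 genes, of which 34 were counted in every library. In footprints of control cells 3 fell and 1 rose with torin 1, where 4.06% of 9857 genes were called lower and 2.85% higher. Those that fell were the poly(A)-binding proteins Pabpc1 (-1.98, adjusted p = 1.945e-10) and Pabpc4 (-0.98, adjusted p = 3.842e-05) and the phosphatase Ppm1g (-0.31, adjusted p = 0.0483), and Gigyf1, a partner of the cap-binding protein 4EHP, rose (0.83, adjusted p = 0.00185; log2 changes, edgeR). In Ctu1 iKO 4 fell, among them Pabpc1 (-2.69, edgeR adjusted p = 4.143e-13) and the eIF4E kinase Mknk2 (-0.49, adjusted p = 0.025), and 2 rose, Gigyf1 and the mTOR complex 1 scaffold Rptor (0.35, adjusted p = 0.0242), where 6.36% of all genes were called lower and 5.68% higher. The list's median log2 change was -0.03 in control and -0.06 in Ctu1 iKO. Of 76 ribosomal protein genes, 73 and 75 fell, with medians of -0.96 and -1.58, so the Eif4b change of -0.86 in control lay near the median of ribosomal protein genes and that of -1.06 in Ctu1 iKO above it. With library totals in place of TMM, higher genes made up 65.5% of all genes called with torin 1 in control and 69.1% in Ctu1 iKO, instead of 41.3% and 47.2%, since the median of all genes moved from 0.02 to 0.1 and 0.11. The same change of scaling moved the share of higher genes among those called from 60.7% to 75.3% for Ctu1 iKO with DMSO and from 46.2% to 61.1% for Ctu1 iKO with torin 1. In transcripts it moved from 43.7% to 32.8% and from 48.7% to 28.7% for torin 1 in control and Ctu1 iKO and from 53.3% to 36.3% for Ctu1 iKO with torin 1, and in translational efficiency from 13.8% to 46.9% for torin 1 in Ctu1 iKO. Between genotypes with DMSO, Pabpc1 (-0.73) and the S6 kinase family member Rps6ka1 (-0.51) were lower in Ctu1 iKO and none was higher, where 2.76% of all genes were called in either direction. With torin 1, 4 of the list were lower and 0 higher, Mtor (-0.34), Pabpc1 (-1.44), Pabpc4 (-0.76) and Rps6ka1 (-0.7), each at an edgeR adjusted p of 0.0185 or less, where 4.6% of all genes were called lower and 3.95% higher.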

How the data were processed

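By label the 46 libraries form 23 pairs of ribosome footprints and poly(A) RNA, which the methods take from the same lysates. Each pair is called a culture here. The authors deposited raw counts per gene, with no normalization. Per the methods and the submitters' processing notes, adapters of both assays were trimmed with cutadapt 3.4. Short footprint reads were dropped, molecular identifiers extracted with UMI-tools 1.1.1, rRNA reads removed and the rest aligned with STAR 2.5.3a; RNA-seq reads were aligned with STAR too. The methods ran STAR on footprints with its gene counting option, which takes uniquely aligned reads; whether the deposited footprint counts are that output, whether identifiers were collapsed, and how RNA-seq reads matching several places were counted is not given in the sources used here. The methods name a human build for STAR and the processing notes GRCm38 (mm10); the symbols are mouse. Every RNA-seq count was even. The tables list only genes with at least 100 footprint counts in some library of that treatment. The methods name fewer biologically independent replicates than the legends; where replicate numbers are not separate cultures, p-values measure technical spread only.

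Genes averaging 10 or more counts entered the quasi-likelihood test of edgeR 4.0.16 (R 4.3.3), with TMM scaling, 1 fit of the 4 groups per assay and Benjamini-Hochberg adjustment over all genes, with DESeq2 1.42.0 as an alternative. Translational efficiency was the interaction of assay and group, TMM within assay. The fits were tested on simulated counts for torin 1 in control. In footprints 9% of log2 changes of 0.5 and 86% of those of 1 were called, and in transcripts 52% and 97%. In translational efficiency 31% of changes of 1 and 96% of those of 2 were called. False calls made up 5% of calls in footprints, 6.29% in transcripts and 13% in translational efficiency, at the threshold of 0.05. A change that was not called is thus not shown to be absent. Ratios were tested with SciPy 1.17.1. Named genes were the 10 members, the 3 most correlated genes of each, and fixed lists. Members, lists and the choice of RNA-seq replicates 1 to 3 were made with earlier results of these data known. Same-numbered footprint libraries deviated together (r 0.459 to 0.653 for torin 1 in control, 0.339 to 0.57 for Ctu1 iKO with torin 1), as did transcript libraries (0.503 to 0.846), so replicate-block values are printed there; for the other 2 footprint contrasts replicate 4 gave r of -0.0332 and -0.0913. Footprint and RNA-seq libraries of the same culture, in replicates 1 to 3 only, had r of 0.175 to 0.469.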

Additional observations from a re-analysis of the deposited data

Results flagged for a closer look

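Of 40 groups of footprint values (10 genes in 4 groups), 2 held a library whose distance to the next was a large part of the group's range by Dixon's test; chance flags about 1 in 20 groups. Eif4b in control cells with torin 1 read 112.1 CPM in replicate 1 and 177.7 to 197.9 CPM in the other 5. Eif4a2 in the same group read 92.22 CPM in replicate 2 and 167.6 to 204.8 CPM in the other 5.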

How the results depend on the processing

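Of 13 calls of a member, refitted under every alternative, 300 refits kept the call, 33 lost it and 0 turned direction; of 3067 refits of members not called, 47 were called and 166 changed sign, 0 of these 166 being called. Eif4b footprints with torin 1 kept their call under every alternative tried, from -0.9 to -0.76 in control and -1.19 to -0.88 in Ctu1 iKO. The cause of the changes below was not tested, except that subsets hold fewer libraries.

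The following are numbers of the 10 members called, each with the share of all genes called in the same fit; the split term sets replicates 1 and 2 against the others, as no label does, and leaves replicates 3 to 6 as 1 set, although in control with DMSO footprint counts of replicates 3 and 4 (chi-square per degree of freedom 32.41) and of 5 and 6 (27.99) were nearer each other than across these pairs (57.99 to 104.7). Footprints, torin 1 in control, had 2 (6.91%), but 1 in replicates 1 to 3 only (1.53%) and 1 in replicates 4 to 6 only (4.71%). Torin 1 in Ctu1 iKO had 3 (12%), but 5 with the split term (18.3%), 4 with DESeq2 (14.9%; adding Eif4g2), 2 in replicates 1 to 3 only (3.65%; Eif4b and Eif4ebp2) and 2 in replicates 4 to 6 only (6.98%; Eif4b and Eif4a2). Ctu1 iKO with DMSO had 0 (2.76%), but 2 with the split term (7.18%). Ctu1 iKO with torin 1 had 1 (8.54%), but 2 with DESeq2 (11.4%), 0 with 2 groups only (4.94%), 0 in replicates 1 to 3 only (1.17%) and 3 with the split term (14.5%). Transcripts with all replicates had 0 for torin 1 in control (1.26%; main value 1, 11.8%), 0 for torin 1 in Ctu1 iKO (0%; 1, 17.9%), 2 for Ctu1 iKO with DMSO (15.8%; 0, 6.28%) and 0 for Ctu1 iKO with torin 1 (0%; 1, 10.1%); DESeq2 gave 1 for Ctu1 iKO with DMSO (13.3%), and for Ctu1 iKO with torin 1, 2 groups only gave 0 (1.32%) and replicates 1 and 2 only gave 2 (16.4%). Translational efficiency had 2 in both torin 1 comparisons (1.18% in control and 2.51% in Ctu1 iKO), but 1 in each with all footprint replicates (1.27% and 2.71%) and 1 with library totals alone in control (0.985%); in Ctu1 iKO DESeq2 gave 3 (4.47%), adding Eif4g2 (0.35, adjusted p = 0.0258), and library totals alone gave 2 (3.23%), with Eif4g2 (0.52, adjusted p = 0.0251) in place of Eif4ebp2 (adjusted p = 0.055).

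With the replicate block, numbers of members called in footprints were 3 for torin 1 in control (13.9% of all genes), 6 for torin 1 in Ctu1 iKO (21.3%; adding Eif4g2, Eif4a1 and Eif4ebp1), 2 for Ctu1 iKO with DMSO (9.72%; Eif4a1 and Eif4ebp1), 3 for Ctu1 iKO with torin 1 (17.4%) and 0 for the interaction (1.41%). In transcripts they were 3 (32.3%), 3 (41%), 2 (29.2%), 3 (35.9%) and 0 (0%). In translational efficiency, with the culture as the replicate block, they were 2 (1.23%), 2 (3.54%), 0 (0.0203%) and 0 (0.741%). The block changed no other call in these fits. For the ratios the block test flips the signs of the paired differences. With so few pairs it cannot pass the threshold after adjustment over 16 tests, so its count of 0 tells nothing. It joins equal numbers, but footprints of Ctu1 iKO DMSO replicates 4 and 5 correlated best with numbers 5 and 6 of Ctu1 iKO torin 1 (r 0.538 and 0.5) and of control DMSO (0.531 and 0.524), and the labels do not say which were paired.

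Leaving out 1 library gave 2 to 2 members called in footprints for torin 1 in control (5.5% to 8.32% of all genes), 2 to 4 in Ctu1 iKO (10% to 12.8%), 0 to 0 for Ctu1 iKO with DMSO (1.8% to 4.08%) and 1 to 2 with torin 1 (6.93% to 8.9%). In transcripts it gave 1 to 1 (6.19% to 14%), 1 to 2 (12.4% to 20.9%), 0 to 0 (1.62% to 8.48%) and 0 to 1 (3.09% to 15.5%), and in translational efficiency 1 to 2 (0.843% to 1.26%), 1 to 2 (1.87% to 2.68%), 0 to 0 (0% to 0.0102%) and 0 to 0 (0.193% to 0.66%). For Ctu1 iKO with torin 1, footprints of Eif4b were added without control torin 1 replicate 1 or Ctu1 iKO torin 1 replicate 2, and of Eif4ebp2 without Ctu1 iKO torin 1 replicate 4. Transcripts of Eif4e were added for torin 1 in Ctu1 iKO without Ctu1 iKO torin 1 replicate 3. For torin 1 in Ctu1 iKO, footprints of Eif4g2 were added on leaving out any of 8 libraries and of Eif4h on leaving out Ctu1 iKO DMSO replicate 4 or torin 1 replicate 2, and Eif4a2 was lost without Ctu1 iKO DMSO replicate 3. The ratios had 0 to 2 of 16 called, 2 without control torin 1 replicate 2.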

Other observations

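In the RNA-seq libraries of replicates 4 to 6, which entered the fits with all replicates and no other comparison above, Eif4b transcripts read 506, 598.8 and 568.2 CPM in control with DMSO, 747.8, 565.8 and 519.9 CPM in control with torin 1, 799.4 and 732.7 CPM in the 2 libraries labelled Ctu1 iKO with DMSO, and 747.9, 657.6 and 583.3 CPM in those labelled Ctu1 iKO with torin 1 (scaled over all 23 RNA-seq libraries). Footprints of Eif4b from the same numbers read 257.9 and 262.3 CPM in Ctu1 iKO with DMSO and 156.7, 123.5 and 144.9 CPM in Ctu1 iKO with torin 1.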
